A study of Mus musculus with 2 samples.

Results

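The genes described here encode the basic leucine zipper (bZIP) transcription factors, the family to which ATF4 itself and its possible partners belong. 47 genes were listed by name, out of 21887 protein-coding genes, and were divided into 8 subfamilies (ATF, CEBP, CREB, FOS, JUN, MAF, NFE2 and PAR). Members were listed by protein family, with earlier results of these data known. ATF4 occupancy was profiled by CUT&Tag, in which an antibody brings the pA-Tn5 transposase to a protein on chromatin and the DNA around it is tagged and sequenced. The neurons were primary cultures of embryonic cortex and hippocampus (mouse strain C57BL/6), with no altered allele named in the labels, and each library was made from about 100000 cells. 1 library carried the ATF4 antibody and 1 carried IgG, and only the former was analysed here. Whether these neurons had received hemin, the agent used elsewhere in the study, is not stated for this assay, and the IgG library came from the same tissue and strain.

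With 1 library there is no replicate error, so all comparisons below are between genes or peaks of that library. A peak list holds no expression values, so the label of neurons could not be checked against cell type markers. The list held 7873 peaks with a median fold enrichment of 4.33, a median width of 207 bp and a median of 4 fragments at the summit. Fold enrichment is the peak caller's ratio of the signal at the summit to its estimated background, and it cannot be read as enrichment over IgG. Fragments were recovered from the fold enrichment and the p-value, and their exact Poisson intervals (95%) cover counting error only. 1910 peaks (24.3%) rested on at least 6 fragments, so the absence of a called peak at a gene means that none was detectable at this depth.

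bZIP proteins bind DNA as dimers: the leucine zipper joins the partners and the basic region of each reads its part of the site. The partner therefore sets the sequence that is read. ATF4 pairs with C/EBP proteins on C/EBP-ATF composite elements, FOS and JUN proteins form AP-1, CREB proteins read the cyclic AMP response element (CRE), and small MAF proteins pair with NFE2-type factors at antioxidant response elements. ATF4 is the effector of the PERK branch of the endoplasmic reticulum stress response, and several bZIP genes, such as Ddit3, which encodes CHOP, are textbook ATF4 targets.

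The first question was how often bZIP genes carried a peak. 14 of the 47 bZIP genes (29.8%, 95% Clopper-Pearson interval 17.3 to 44.9) had a summit within 1 kb of either gene end, whereas 8.09% of the other protein-coding genes (1766 of 21840) did. A summit inside the gene was found in 11 members (23.4%, interval 12.3 to 38.0), against 14.3% of the other genes. A summit in the gene or within 10 kb was found in 20 members (42.6%, interval 28.3 to 57.8), against 24.7%. When peaks under a -log10 q of 5 were dropped, 9 members (19.1%, interval 9.15 to 33.3) still had a gene-end peak, against 2.70% of the other genes. With the same limit the share inside the gene was 17.0% against 2.99%, and the share in the gene or within 10 kb fell to 27.7%, below the interval given above, against 6.17%. With peaks of at least 6 fragments, the share inside the gene was 17.0% against 4.05%. All these member shares were higher than those of the other genes, and without a limit on q or fragments the interval around the share inside the gene contained the value of the other genes. No test was made of the list, because its members had been chosen with results of these data known. bZIP genes were shorter than the other genes (median 10530 against 17180 bp), and the part of gene length in these shares was not tested.

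**Figure D1:**
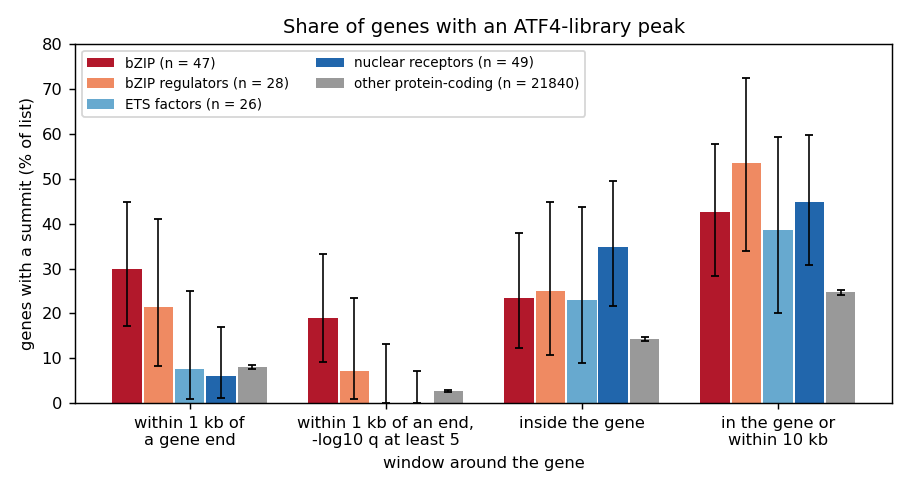
Share of genes (%, bars) with an ATF4-library summit in 4 windows around the gene, for the 47 bZIP genes, 28 regulators of bZIP proteins, 26 ETS factors, 49 nuclear receptors and 21840 other protein-coding genes, with exact Clopper-Pearson 95% intervals as error bars. Within 1 kb of a gene end the bZIP bar reached 29.8% and that of the other genes 8.09%, and the bZIP interval there overlapped those of the regulators and the ETS factors but not that of the nuclear receptors.

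By subfamily, 3 of 4 FOS genes and 3 of 4 JUN genes had a gene-end peak, as did 3 of 10 ATF genes, 2 of 6 CEBP genes, 1 of 8 CREB genes, 1 of 6 NFE2 genes, 1 of 4 PAR genes and 0 of 5 MAF genes, next to 8.09% of the other protein-coding genes. With so few genes each, the intervals were wide and overlapped (19.4 to 99.4% for FOS and for JUN, and 0 to 52.2% for MAF), and differences between subfamilies were not tested. The order also changed at a -log10 q of 5 or more, where 1 of 4 FOS genes, 2 of 4 JUN genes, 3 of 10 ATF genes, 2 of 6 CEBP genes and 1 of 6 NFE2 genes had a gene-end peak, and 0 CREB, MAF and PAR genes did (2.70% of the other genes). A further 6 members had a peak only inside the gene (Creb5, Bach2, Hlf and Nfil3) or only outside it within 10 kb (Mafg and Nfe2). The remaining 27 members had none.

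**Figure D2:**
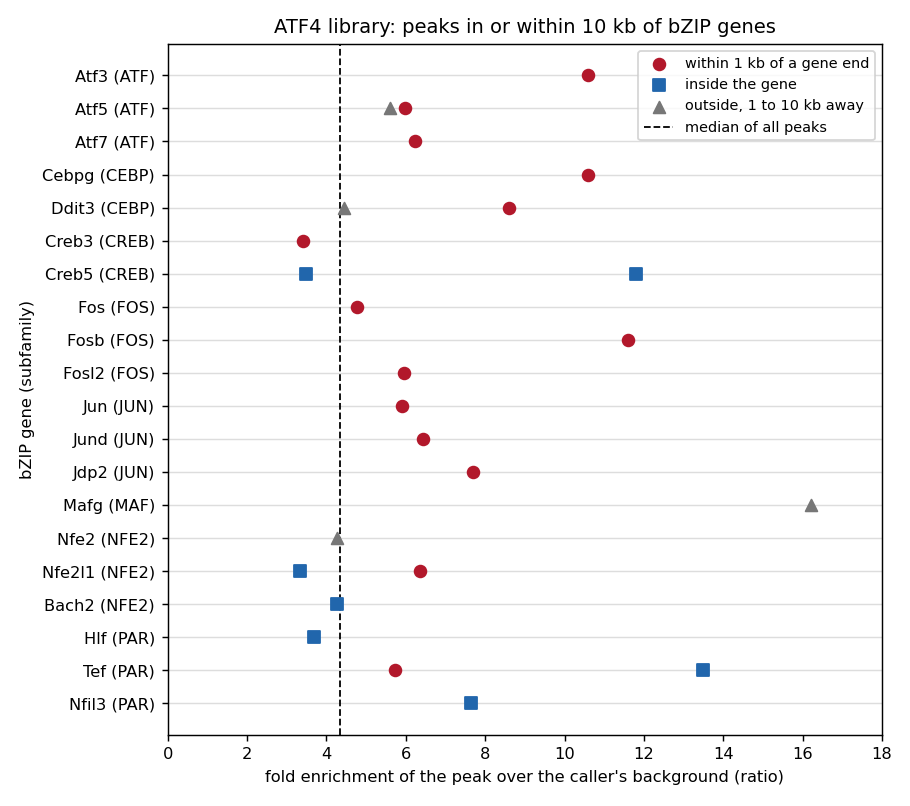
Fold enrichment (ratio, x axis) of the 25 ATF4-library peaks in or within 10 kb of a bZIP gene, with 1 row for each of the 20 genes that have one. The symbols give the position of the summit, and the dashed line marks the median of all peaks (4.33). Among the 14 gene-end peaks, only that of Creb3 (3.41) lay below the dashed line.

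Among genes that had a gene-end peak, those of the bZIP genes were also taller by the median. This describes a list made with earlier results of these data known, and no test was made. The peaks of Atf5, Cebpg, Ddit3 and Creb3 also count among those of the other genes, through neighbouring gene ends. The strongest gene-end peak had a median fold enrichment of 6.30 in bZIP genes (range 3.41 to 11.6) and of 5.08 in the other genes (range 3.29 to 31.0). The median number of fragments was 8.50 against 5.00, and the median width 370 against 257 bp. 13 of the 14 bZIP peaks (92.9%) had at least 6 fragments, against 45.6% of those of the other genes. The ranges overlapped throughout: 26.6% of the other genes with a gene-end peak reached the bZIP median of the -log10 q (5.74) or passed it, and the highest gene-end peak lay at another gene.

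**Figure D3:**
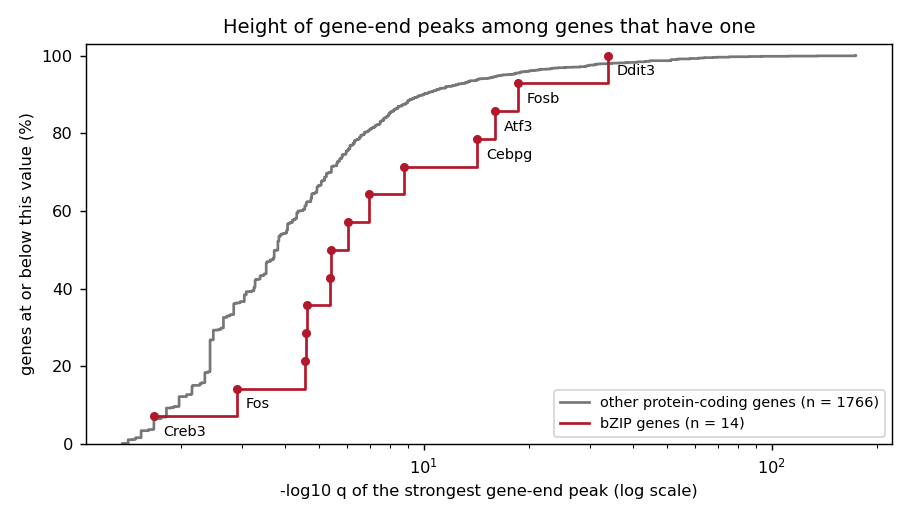
Cumulative share of genes (%, y axis) by the -log10 q of their strongest gene-end peak (x axis, log scale), for 14 bZIP genes (red) and 1766 other protein-coding genes (grey). The red line lies to the right of the grey one over most of its length, and Creb3, at 1.68, is the lowest bZIP gene.

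Positions are those of the deposited peak list. Distances to gene ends use the RefSeq gene table of GRCm38.p6, which lists no strand, and starts were taken from the RefSeq promoter table of the same build, which holds 38 of the 47 members. Of the 14 gene-end peaks, 11 had the summit upstream of the nearest annotated start and 3 downstream of it, at a median distance of 215 bp. 10 of them lay within 300 bp of a start. Counted by starts alone, 14 of the 38 members (36.8%) had a summit within 1 kb, against 7.41% of the other genes. All 14 gene-end summits lay within 1 kb of an annotated start.

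**Figure D4:**
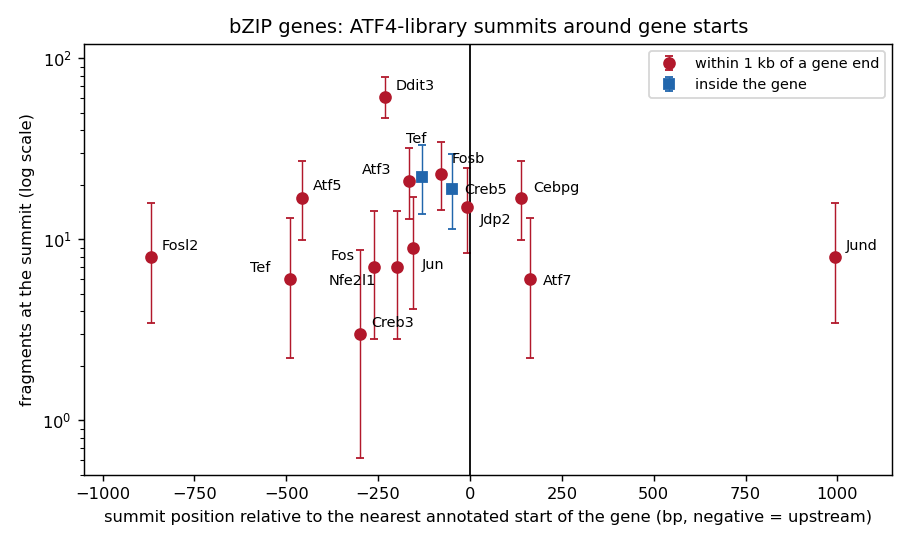
Fragments at the summit (y axis, log scale, with exact Poisson 95% intervals as error bars) against the distance of the summit from the nearest annotated start of the bZIP gene (x axis, bp, negative upstream). Red points are the 14 gene-end peaks, and blue points are the peaks inside Tef and Creb5 within 1 kb of a start. Ddit3 stands highest with 61 fragments, and 10 of the red points lie within 300 bp of the start.

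The sequences upstream of 5 starts under a peak are shown because they hold the motifs found closest to the summits. They were taken from RefSeq (GRCm38.p6), run 5' to 3' on the strand of the gene and end at the base before the start, except for Jdp2, of which only the bases around the match are given. Capitals mark the matched motif. The matches shown for Atf3, Fosb and Jdp2 are to TGATGNAA or TGACGCAA, motifs that were added after the sequences had been seen.
Atf3 (chr1:191183334-191183583, minus strand): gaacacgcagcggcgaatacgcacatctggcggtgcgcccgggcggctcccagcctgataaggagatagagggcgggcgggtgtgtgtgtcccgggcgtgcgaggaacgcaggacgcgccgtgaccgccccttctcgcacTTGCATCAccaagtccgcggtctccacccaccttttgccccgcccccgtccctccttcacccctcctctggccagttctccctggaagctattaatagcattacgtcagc
Ddit3 (chr10:127290543-127290792, plus strand): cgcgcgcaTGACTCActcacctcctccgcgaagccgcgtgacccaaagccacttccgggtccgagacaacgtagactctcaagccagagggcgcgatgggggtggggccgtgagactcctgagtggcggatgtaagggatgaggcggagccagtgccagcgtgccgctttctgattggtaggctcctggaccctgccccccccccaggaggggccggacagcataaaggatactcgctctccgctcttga
Fosb (chr7:19310046-19310295, minus strand): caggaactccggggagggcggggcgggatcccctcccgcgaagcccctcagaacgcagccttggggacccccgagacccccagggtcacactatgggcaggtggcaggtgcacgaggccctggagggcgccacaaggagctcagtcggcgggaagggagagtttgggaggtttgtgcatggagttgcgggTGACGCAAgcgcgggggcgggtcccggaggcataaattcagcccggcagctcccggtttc
Creb5 (chr6:53573124-53573373, plus strand, internal start): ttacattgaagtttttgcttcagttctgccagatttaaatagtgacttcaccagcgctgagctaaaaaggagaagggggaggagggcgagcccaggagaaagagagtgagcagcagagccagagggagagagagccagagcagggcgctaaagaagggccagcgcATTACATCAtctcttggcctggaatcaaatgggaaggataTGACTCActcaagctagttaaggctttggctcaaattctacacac
Jdp2 (chr12:85599372-85599401, plus strand): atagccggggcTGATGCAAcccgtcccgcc

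In the ATF subfamily, Atf3 had the strongest peak. Atf3, a stress-induced repressor and activator that ATF4 is known to induce, had a peak at chr1:191183061-191183621 with a fold enrichment of 10.6 (q = 1.01e-16), rank 185 of 7873 by q. Its summit, with 21 fragments (interval 13.0 to 32.1), lay 167 bp upstream of the start. The sequence above holds TTGCATCA, the reverse complement of the first letters of the composite element, 110 bp before the start and 57 bp from that summit. Atf5, a close relative of ATF4 that governs the mitochondrial stress response, had a peak at chr7:44815931-44816629 with 17 fragments and a fold enrichment of 5.99 (q = 1.09e-07). This summit was inside Atf5, 544 bp from its end and 456 bp upstream of a second start, but it also lay 26 bp from an end of Nup62 and 256 bp from an end of Il4i1b. Atf5 had another peak 2419 bp outside the gene (chr7:44818830-44819259) with a fold enrichment of 5.59 and 16 fragments. Atf7, a CRE-binding factor related to ATF2, had a narrower peak at chr15:102625219-102625474 with a fold enrichment of 6.24 (q = 8.65e-07), which rested on 6 fragments (interval 2.20 to 13.1) 163 bp inside the gene. The 3 gene-end peaks of this subfamily all passed a -log10 q of 5.

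Atf4 itself (chr15:80255184-80257545) had no peak, and the nearest summit lay 243 kb away, farther than for any other member. Atf1, Atf2 and the membrane-bound Atf6b had none within 10 kb either, nor had Batf, Batf2 and Batf3, which encode short bZIP proteins of immune cells. The nearest summits to these 6 genes lay 22.9 to 99.4 kb away.

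Both CEBP members with a peak encode proteins that pair with ATF4. Ddit3 encodes CHOP, a C/EBP-like protein linked to cell death under prolonged endoplasmic reticulum stress. Its peak at chr10:127290205-127291188 had a fold enrichment of 8.60 (q = 1.70e-34), rank 74 of 7873, and its summit lay 232 bp upstream of the start. The 61 fragments there (interval 46.7 to 78.4) were the most at any bZIP gene end. The background of 6.21 fragments was higher than the 0.121 to 2.00 at the other 13 gene-end peaks, and the fold enrichment of Ddit3 was below those of Fosb, Atf3 and Cebpg. The Ddit3 summit was 308 bp from an end of Mbd6, the neighbouring gene, which overlaps the Ddit3 promoter. A second peak (chr10:127289014-127289649, fold enrichment 4.43, 31 fragments) lay 1742 bp from Ddit3, inside Mbd6. It overlapped the bases around an annotated start of Mbd6, so that its assignment to Ddit3 was not unique. The Ddit3 sequence holds TGACTCA 242 bp before the start and 4 bp from the higher summit, and this window ends at 250 bases before the start, so elements farther upstream were not searched.

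Cebpg encodes a C/EBP protein without a classical activation domain that dimerizes with ATF4. Its peak at chr7:35055865-35056633 had a fold enrichment of 10.6 (q = 6.17e-15), rank 217, with 17 fragments 138 bp inside the gene. No searched motif was found in its promoter window, nor in the windows under a peak of Atf5, Atf7, Creb3, Fos, Jun, Nfe2l1 and Tef. Cebpa, Cebpb, Cebpd and Cebpe had no peak within 10 kb. Cebpb, a further ATF4 partner, had its nearest summit 126 kb away, and the other 3 genes had theirs 16.7 to 24.1 kb away.

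Of the 8 CREB genes, 1 (12.5%, interval 0.316 to 52.7) had a gene-end peak, next to 8.09% of the other genes. Creb3, which encodes a membrane-bound factor cleaved in the Golgi, had the lowest gene-end peak of all members. It lay at chr4:43562319-43562612 with a fold enrichment of 3.41 (q = 0.0211), rank 7354, and it rested on 3 fragments (interval 0.619 to 8.77). Its summit was 299 bp upstream of Creb3 but only 224 bp from an end of Tln1, so that the assignment to Creb3 was not unique. Creb5, a CRE-binding relative of ATF2, had in contrast a tall peak inside its long gene. The Creb5 peak at chr6:53573041-53573397 had a fold enrichment of 11.8 (q = 9.91e-18), rank 168, with 19 fragments (interval 11.4 to 29.7). This summit was 127 kb from the nearer gene end but 49 bp upstream of an internal start. Creb5 was hence the member gained when all annotated starts were used in place of gene ends (15 of 38 members, 39.5%, against 8.14% of the other genes). A second, weak peak inside Creb5 (chr6:53459956-53460120, fold enrichment 3.49) rested on 3 fragments.

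The sequence before this internal start of Creb5 holds both ATTACATCA, the composite element on the opposite strand, 28 bp from the summit, and TGACTCA, 4 bp from it. The window at the first start of Creb5, which carried no peak, holds TGATGTAAT and TGACGTCA. Creb1, the cyclic AMP-responsive factor that is abundant in neurons, and Crem had no peak within 10 kb. Creb3l1, Creb3l2, Creb3l3 and Creb3l4, which are membrane-bound factors like Creb3, had none either. The nearest summits to these 6 genes were 23.9 to 190 kb away.

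FOS and JUN genes encode the immediate early factors that form AP-1 and are induced by neuronal activity and stress. Fosb had the highest fold enrichment at a bZIP gene end, 11.6 (q = 2.54e-19, rank 151), at chr7:19310057-19310453 with 23 fragments (interval 14.6 to 34.5). The summit was 79 bp upstream of the annotated start. The Fosb sequence above holds TGACGCAA 19 bp from it. Fos had a lower peak at chr12:85473522-85473792, with 7 fragments and a fold enrichment of 4.78 (q = 0.00126), its summit 261 bp upstream of the gene. Fosl2, an AP-1 subunit with slower induction, had a peak at chr5:32135499-32135740 with 8 fragments and a fold enrichment of 5.96 (q = 2.58e-05). The Fosl2 summit lay 868 bp upstream and was close to the 1 kb limit. Fosl1 had no peak within 10 kb (nearest summit 14.3 kb).

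Jun, the prototype AP-1 subunit, had a peak at chr4:95052177-95052520 with a fold enrichment of 5.91 (q = 2.42e-05), which rested on 9 fragments (interval 4.12 to 17.1). The Jun summit was 156 bp upstream of the start and 61 bp from an end of the noncoding RNA gene Junos. Jund, the JUN gene with the steadiest expression, had a peak at chr8:70698498-70698819 with 8 fragments and a fold enrichment of 6.44 (q = 4.40e-06). The Jund summit was 993 bp downstream of the start, just inside the 1 kb limit. Jdp2, which encodes a repressor that dimerizes with JUN and ATF proteins, had the widest member peak. It covered 1007 bp at chr12:85598782-85599788, with a fold enrichment of 7.69 (q = 1.62e-09, rank 447) and 15 fragments 8 bp upstream of one of its 3 annotated starts. TGATGCAA was found 18 bp from that summit. Junb, a further immediate early gene, had no peak within 10 kb (nearest summit 58.0 kb).

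No MAF gene had a peak at its end or inside it. Mafg, which encodes a small MAF protein that is a partner of NFE2-type factors, was counted within 10 kb through the highest peak of any member, at chr11:120643482-120644124, with a fold enrichment of 16.2 (q = 4.44e-54, rank 49) and 61 fragments. This summit lay 8.89 kb outside Mafg and 101 bp from an end of Pycr1, which encodes an enzyme of proline synthesis. Maf, Mafa, Maff and Mafk had none within 10 kb (nearest summits 12.4 to 187 kb).

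Of the NFE2 subfamily, Nfe2l1 alone had a gene-end peak. Nfe2l1 encodes an endoplasmic reticulum-bound factor that drives proteasome genes. Its peak at chr11:96830023-96830449 had 7 fragments and a fold enrichment of 6.35 (q = 3.78e-06), with the summit 198 bp upstream of the gene. A second, weak Nfe2l1 peak of 3 fragments (fold enrichment 3.34) had its summit 1166 bp from the other end and was the nearest to miss the 1 kb limit. Nfe2 was counted within 10 kb through a peak of 4 fragments that lay 204 bp from Hnrnpa1 and 243 bp from Cbx5. Bach2, a repressor, held a peak of 4 fragments 89.8 kb from its nearer end. Nfe2l2, which encodes NRF2, the main regulator of antioxidant genes, had no peak within 10 kb (nearest summit 16.6 kb). Bach1 (82.1 kb) and Nfe2l3 (11.4 kb) had none either. Nfe2l3 was the first member beyond the 10 kb limit, followed by Mafa at 12.4 kb, and Mafg was the last within it.

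The PAR subfamily, whose members Dbp, Hlf and Tef are clock-controlled activators and whose member Nfil3 represses the same sites, had a peak inside 3 of its 4 genes (interval 19.4 to 99.4%), next to 14.3% of the other genes, and 1 of these, in Hlf, rested on 3 fragments. Tef had 2 peaks. The one at its end (chr15:81802005-81802193) had 6 fragments and a fold enrichment of 5.72 (q = 2.85e-05), with the summit 490 bp upstream of the gene and 430 bp from an end of the noncoding RNA gene Gm17597. The other Tef peak, at chr15:81810971-81811479, was taller, with a fold enrichment of 13.5 (q = 6.92e-22, rank 124) and 22 fragments (interval 13.8 to 33.3). Its summit lay 8.61 kb inside the gene and 130 bp upstream of an internal start. Nfil3 had a peak at chr13:52976795-52977065 with a fold enrichment of 7.63 (q = 8.40e-10, rank 415) and 16 fragments, 6.02 kb inside the gene. The Hlf peak lay 11.7 kb inside the gene, and Dbp had none within 10 kb (nearest summit 61.3 kb).

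In the promoter windows (250 bases before to 50 after each start), motifs were counted on both strands in 52 member windows and in 32851 windows of all genes. The full composite element TGATGNAAT was present in 2 member windows, both of Creb5, and in 0.965% of all windows. TGACGTCA, the CRE, was present in 3 member windows (Creb5, Hlf and Maff), none of them under a peak, and in 1.79% of all windows. TGANTCA, the AP-1 element, was present in 3 (Creb5, Creb3l3 and Ddit3) and in 7.81% of all windows. TTANGTAA, the PAR element, was present in 1 (Jdp2, 346 bp from the summit) and in 2.32%. Of the motifs added after the sequences had been seen, TGATGNAA, which is contained in the composite element, was present in 4 member windows (3.97% of all windows). TGACGCAA was present in that of Fosb alone (0.490%).

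15 member windows overlapped a peak, out of 1354 windows of all genes that did. The full composite element TGATGNAAT was found in 1 of these 15 (Creb5) and in 1.03% of the 1354. TGACGTCA was found in 0 of the 15 and in 4.95% of the 1354, TGANTCA in 2 and in 4.43%, and TTANGTAA in 1 and in 1.70%. Of the motifs added after the sequences had been seen, TGATGNAA was found in 3 of the 15 (Atf3, Creb5 and Jdp2) and in 5.02% of the 1354, and TGACGCAA in 1 and in 4.73%. A match describes the letters in the window and was not tested as a binding site, and a window without a match says only that these letters are absent there.

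For comparison, 28 genes that regulate bZIP proteins were counted in the same windows, among them kinases, coactivators, proteases and ubiquitin ligase parts. 6 of them (21.4%, interval 8.30 to 41.0) had a gene-end peak, against 8.09% of the other genes. 2 (7.14%, interval 0.877 to 23.5) had one with a -log10 q of 5 or more, against 2.70%, and 15 (53.6%) had a summit in the gene or within 10 kb. Nupr1, a small stress-induced cofactor, had the strongest of these (fold enrichment 6.93, 10 fragments), followed by Trib3, a pseudokinase that binds ATF4 (6.23, 9 fragments). Ep300, Gsk3b, Sik1 and Fbxw7 had gene-end peaks with fold enrichments of 3.57 to 5.88. As other factor families, 2 of 26 ETS factors (7.69%) and 3 of 49 nuclear receptors (6.12%) had a gene-end peak, both near the 8.09% of the other genes. 0 of either family had one with a -log10 q of 5 or more (intervals 0 to 13.2% and 0 to 7.25%), and both intervals contained the 2.70% of the other genes. A summit inside the gene was found in 23.1% of ETS factors, 25.0% of the regulators and 34.7% of nuclear receptors, next to 23.4% of bZIP genes and 14.3% of the other genes, so that the bZIP share was within the range of these lists. In the gene or within 10 kb the shares were 38.5% for ETS factors and 44.9% for nuclear receptors, next to 42.6% for bZIP genes and 24.7% for the other genes. The differences between the lists were not tested.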

How the data were processed

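For the ATF4 library, a list of called peaks was deposited. Per the submitters' processing notes, FastQC, BWA, MACS2 2.1.2, deepTools and the build mm10 were used. How these were set, and whether the IgG library entered peak calling, is not given in the sources used here. The values deposited by the authors for each peak are its position and summit, a fold enrichment (a ratio to the estimated background), the -log10 p and -log10 q, and a display score, which was not analysed further. The q-values in the text are the deposited -log10 q turned back. The IgG library was not analysed here.

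The numbers of fragments were solved from fold and p with the formulas of MACS2 (fragments plus 1 over background plus 1, Poisson upper tail). Whole numbers met the deposited -log10 p within 0.001 in all 7873 peaks. Depth is known only through these numbers, and PCR copies are not independent molecules. Summits were joined to RefSeq genes of GRCm38.p6, and motifs were searched in the RefSeq promoter table. A check of that table found the same bases in all 1683 pairs of overlapping windows on opposite strands. Batf2, Cebpd, Cebpe, Creb3l1, Crem, Fosl1, Maf, Mafa and Nfe2 were not in it. Scripts were tested on simulated data.

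Members and lists were chosen with earlier results of these data known. Values are given for members with a gene-end peak, for other member peaks of at least 6 fragments or ranked within the first 787 by q, for Atf4, Ddit3, Cebpb, Cebpg, Atf3 and Nfe2l2, and for the members nearest to each limit. Values of other members were added after they had been seen. Alternatives were other peak thresholds, windows, assignments and starts. Computations ran in Python 3.11.15 with pandas 2.3.3, scipy 1.17.1, numpy 2.4.6 and, for plots, matplotlib 3.10.9.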

Additional observations from a re-analysis of the deposited data

How the results depend on the processing

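The 3 shares of bZIP genes were recomputed under 22 alternatives. The 95% interval of each share is wide and does not measure the effect of processing. A value inside it can still differ in count: members with a gene-end peak fell from 14 to 9 at a -log10 q of at least 5. 21 values stayed inside the interval of the share they replaced. The exception was the share in the gene or within 10 kb, which fell from 42.6% to 27.7% when peaks under a -log10 q of 5 were dropped, while that of the other genes fell to 6.17%. In all 22 the members' share was above that of the other genes, which describes these genes and is not a test. The gene-end share ranged from 19.1% (the same q limit) to 39.5% (any annotated start, 38 genes). It was 25.5% when each peak was counted only for the nearest protein-coding gene, and 21.3% without peaks that also lay within 1 kb of an end of another protein-coding gene, that is, those of Atf5, Cebpg, Ddit3 and Creb3. The last of these, the use of any annotated start and the motifs TGATGNAA and TGACGCAA were chosen after seeing the data. The strongest peak of all 20 members that had one was the same when overlap replaced the summit. A Poisson tail that includes the observed number solved 16 of 7873 peaks and gave no value. No paired analysis was made, because the counterpart of the ATF4 library, the IgG library, was not analysed here and gave no values. The precision is limited by the low number of fragments, with 3 at 3224 of the 7873 summits, and by the lack of a replicate.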
